A study of Mus musculus with 28 samples.

Results

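The genes described here are 40 genes that copy DNA and make its building blocks, chosen by name, and they were 40 of the 54532 genes listed and of the 30159 with at least 1 count. They were ordered by role into origin licensing (10 genes), helicase activation (6), primase and polymerases (8), the sliding clamp and its loader (5), single-strand binding and strand joining (4), nucleotide synthesis (4) and chromatin replication (3). RNA-seq counts were available for 28 cultures of mouse bone marrow-derived macrophages (BMDM), cells grown out of bone marrow for 7 days with macrophage colony-stimulating factor (M-CSF). The marrow came from mice of the strain written as C57/B6JB, and no genetic change is named for any group. The cell culture methods give the age of these mice as 8 to 12 weeks. A general statement on the murine experiments gives 6 to 8 weeks. Cultures received PBS (control), plasma-derived von Willebrand factor (VWF) at 10 µg/ml, or the bacterial cell wall component lipopolysaccharide (LPS) at 100 ng/ml, and RNA was taken after 3.5 h or 16 h. At each time there were 5 control, 5 VWF and 4 LPS cultures, and whether M-CSF was in the medium during treatment is not given in the sources used here. The comparisons asked how each treatment changed gene expression against control at each time. What a replicate number stands for is not given in the sources used here, so the p-values measure only the spread between these cultures.

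Before S phase, the origin recognition complex, Cdc6 and Cdt1 load the ring of Mcm2 to Mcm7 onto origins, and Cdc45 and the GINS complex then turn that ring into the working helicase. Polymerase alpha with primase starts each strand, the loader Rfc places the clamp Pcna, polymerases delta and epsilon extend the strands, and Fen1 and Lig1 finish the lagging strand. Many of these genes are known targets of E2F transcription factors, and in BMDM cultures M-CSF is the signal that keeps cells dividing. In bulk RNA, fewer cycling cells and less RNA of these genes per cell cannot be told apart.

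Libraries held 41131209 to 77699206 counts (median 52986574). All 8 macrophage markers, Csf1r, Cd68 and Adgre1 among them, had counts in every group, and their summed level ran from 17805 to 30144 TPM (a transcript share, with counts scaled by gene length and then by library) in the control and VWF cultures at 3.5 h. The 16 h control labelled replicate 5 stood apart. Its marker sum was 6628.1 TPM against 28447 to 35052 in the other 4 controls of that time. Counts of members called in comparisons with the 16 h controls, and the values of some genes, are therefore given with and without it. Other results that use the 16 h controls include it. The LPS culture labelled replicate 4 at 16 h had a sum of 5797.9 TPM against 11545 to 15328 in the other 3. Early progenitor markers (5 genes, Kit and Cd34 among them) summed to 4.47 to 7.43 TPM in the 16 h controls, 0.382 to 1.31 TPM with VWF and 0.206 to 0.526 TPM with LPS at that time, and to 1.74 to 3.07 TPM in the controls at 3.5 h, 0.700 to 1.39 TPM with VWF and 0.599 to 1.01 TPM with LPS. Of these 5 markers 4 stayed under 1 TPM in every 16 h control, and 3 in every control at 3.5 h. The summed levels of the other marker lists ran from 20.3 to 129 TPM for neutrophils, 0.393 to 37.1 for T cells (highest with LPS at 3.5 h), 0.507 to 22.0 for dendritic cells (highest with LPS at 16 h), 3.54 to 138 for fibroblasts and 0 to 0.695 for erythroid cells. With LPS at 16 h B cell markers summed to 1.60 to 4.35 TPM against 13.8 to 21.1 in the controls of that time, and megakaryocyte markers to 886 to 1455 against 2404 to 4118, while over the other groups they ran from 5.95 to 19.3 and from 1593 to 4387 TPM. In every group 3 of the 4 B cell markers and 2 of the 4 megakaryocyte markers stayed under 1 TPM in every culture. With LPS at 3.5 h so did 3 of the 4 T cell markers, so these sums rest on few genes. Macrophage markers with LPS at 3.5 h summed to 8704.2 to 15851 TPM against 18189 to 30144 in control. The 8 markers did not change alike, with log2 fold changes from -3.25 to 2.48 (median -0.28, 6 negative and 2 positive). With VWF at 16 h they summed to 28265 to 50361 TPM, against 6628.1 to 35052 in the controls of that time. In that comparison 3 of the 8 were called higher, against 4.55% of all genes. The log2 fold changes of the 8 ran from -0.53 to 2.89 (median 0.71, 7 positive and 1 negative). The part of these values in the results on the replication genes was not tested.

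A gene was tested where at least 1 culture of a comparison reached 10 TPM. Orc1, Pola1, Pole and Fen1 stayed under 10 TPM in all 28 cultures and entered no test, which leaves 36 members that were tested somewhere. Cdc6, Pole2 and Chaf1a were tested only where the 16 h VWF cultures entered. A gene was called higher or lower at an adjusted p under 0.05 and a log2 fold change beyond 1 in size, which is a 2-fold change (quasi-likelihood test of edgeR, p-values adjusted by Benjamini-Hochberg over all genes tested). For some members the counts are uncertain, because exons overlap other genes and strand use in counting is not given in the sources used here. The share of exon bases under another gene was 84.2% for Fen1, 67.3% for Gins2 and 52.5% for Chaf1a, and it was 15.1% for Rfc2, 12.7% for Rfc4 and 12.6% for Mcm7. Of the windows of 100 bases in Pcna, 10.1% also occur in the pseudogene Pcna-ps2.

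Promoter letters were read because the members changed together and because E2F sites are known in several of these promoters. RefSeq windows of 250 bases before to 50 bases after a start were matched for 33 of the 40 members (39 windows, GRCm38.p6). The E2F letters TTTGGCGC, TTTCCCGC, TTTCGCGC or TTTGCCGC, on either strand, stood in 14 of these 39 windows (35.9%), against 2.26% of 32851 windows of all genes. The letters CCAAT, on either strand, stood in 23 windows (59%), against 37.4% of all windows. The E2F letters lay before the start in 9 members. Of those stretches 5 lie outside every annotated exon of GENCODE and are printed 5′ to 3′ on the gene's own strand, with 30 bases on each side of the matches and the E2F letters in capitals. Matches on both strands can overlap, which joins them into longer runs of capitals in Mcm6 and Mcm5.
Mcm6: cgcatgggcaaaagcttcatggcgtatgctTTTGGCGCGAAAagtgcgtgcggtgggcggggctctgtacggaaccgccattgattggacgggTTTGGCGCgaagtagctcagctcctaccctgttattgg
Mcm5: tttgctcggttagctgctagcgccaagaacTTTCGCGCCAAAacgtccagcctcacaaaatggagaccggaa
Cdc6: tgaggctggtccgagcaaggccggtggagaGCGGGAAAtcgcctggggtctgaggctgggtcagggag
Uhrf1: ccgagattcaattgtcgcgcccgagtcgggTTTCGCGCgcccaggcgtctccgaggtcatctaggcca
Pola1: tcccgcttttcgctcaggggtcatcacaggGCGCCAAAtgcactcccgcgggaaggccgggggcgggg
The Mcm6 stretch is chr1:128359715-128359845 on the minus strand and holds 3 matches.
The Mcm5 stretch is chr8:75109326-75109397 on the plus strand and holds 2 matches. The Pola1 stretch is chrX:93632256-93632323 on the minus strand, and like those of Mcm6 and Mcm5 it lies outside annotated genes. The Cdc6 stretch (chr11:98907983-98908050) and the Uhrf1 stretch (chr17:56304098-56304165) are on the plus strand and lie in annotated introns of their own gene, between alternative starts. A match of letters is a description and not a measured binding site.

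As levels per length, the members spanned a wide range in the 16 h controls. Pcna was highest with a mean of 727 TPM, followed by Rrm2 at 102, Mcm6 at 99.3, Gins4 at 91.3 and Mcm5 at 70.0 TPM. The lowest were Fen1 at 3.86, Pole at 2.65 and Orc1 at 2.50 TPM. The median over the 40 members of the mean TPM was 13.8 in control, 9.34 with VWF and 7.57 with LPS at 3.5 h, and 27.4 in control, 29.8 with VWF and 3.27 with LPS at 16 h. In CPM with TMM factors, the scale used here between groups, it was 14.4, 10.65 and 12.03 at 3.5 h. At 16 h it was 25.7, 37.37 and 6.446 on that scale. The order of VWF and LPS at 3.5 h thus depended on the scale. So did the size of the gap between the control and VWF medians at 16 h. Members that reached 10 TPM in at least 1 culture numbered 25, 24 and 17 in the control, VWF and LPS groups at 3.5 h and 33, 35 and 8 at 16 h. LPS at 16 h was thus the group with the fewest members above that level.

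**Figure D1:**
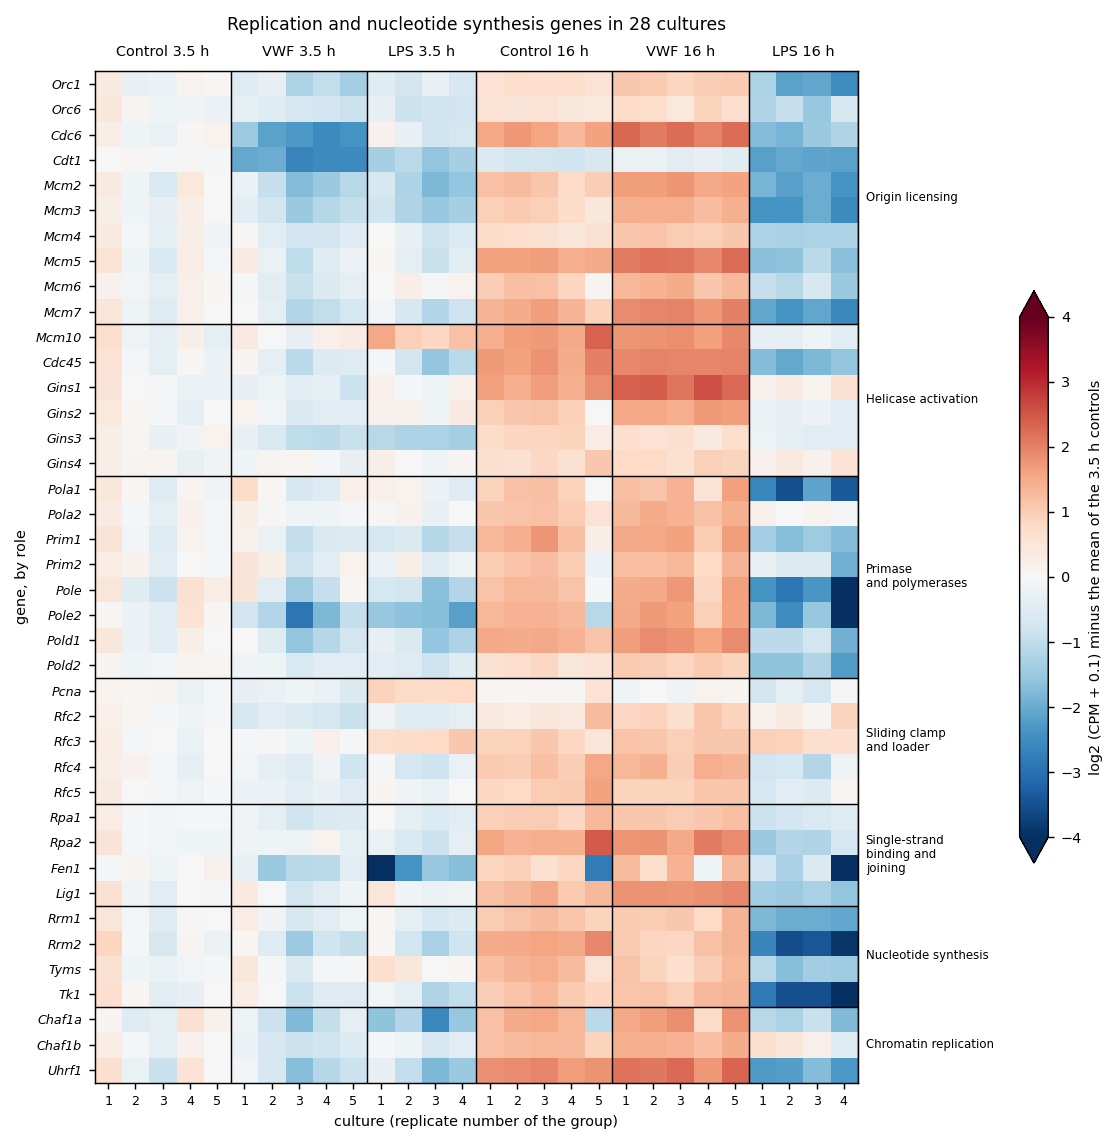
Each row is 1 of the 40 genes, ordered by role, and each column 1 of the 28 cultures, ordered by group; colour is the log2 level (CPM plus 0.1) relative to the gene's mean in the 5 controls at 3.5 h, limited to 4 in size. The 4 LPS cultures at 16 h are below the controls of both times in most rows, and the control and VWF cultures at 16 h are above the 3.5 h controls in most rows.

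With LPS at 16 h, replication and nucleotide synthesis genes were lower across every role. Of 33 members tested, 27 were called and all 27 were lower, against 12.4% of all genes tested called lower and 15.3% called higher. The median log2 fold change of the 33 members was -1.89, against -0.03 over all genes tested. In 31 members every LPS culture lay below every control culture, against 24.4% of all genes. By role the calls were 8 of 8 tested licensing genes, 5 of 6 helicase genes, 4 of 5 polymerase genes, 2 of 5 clamp genes, 3 of 3 binding and joining genes, 4 of 4 nucleotide synthesis genes and 1 of 2 chromatin genes. Only 8 of the 33 members reached 10 TPM in both groups, and the other 25 entered the test through the control cultures alone, so a count over tested members favours lower calls. Without the 16 h control replicate 5, 27 of 32 tested members were called, and without the LPS replicate 4 at 16 h, 27 of 33. Scaling libraries by their total counts alone shifted the median log2 fold change of all genes to -0.59, turned the calls over all genes from 1221 higher and 989 lower to 782 and 2319, and called 30 members, all lower.

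With LPS at 3.5 h, fewer members moved. Cdt1, Mcm2, Mcm3 and Uhrf1 were called lower of 25 tested, against 11.8% of all genes called lower and 12.8% called higher. By adjusted p alone 10 members were lower and 2 were higher, against 33.9% and 31.8% of all genes. Of the 25 members 17 reached 10 TPM in both groups, and the others, Uhrf1 among them, entered through the control cultures alone. That favours lower calls. With the replicate number as a block, an alternative chosen after seeing the data, 16 were lower and 2 higher by adjusted p alone, and no share over all genes was computed for these counts. The higher pair was Pcna and Rfc3, and their log2 fold changes did not reach the limit. The members' median log2 fold change was -0.40, against -0.02 over all genes. With scaling by total counts alone the median of all genes was -0.55, the calls over all genes turned from 1047 higher and 963 lower to 704 and 2213, and 11 members were called, all lower.

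With VWF at 3.5 h, Cdt1 and Mcm2 were called lower of 25 members tested, against 5.59% of all genes called lower and 9.10% called higher. By adjusted p alone 10 members were lower, against 21.3% of all genes, and 5 of these 10 were licensing genes. With the replicate block 17 were lower by adjusted p alone, and no share over all genes was computed for that count. Of the 25 members, 24 had a negative log2 fold change, with a median of -0.44 against -0.01 over all genes. With scaling by total counts alone the median of all genes was -0.22, the calls over all genes turned from 746 higher and 458 lower to 608 and 652, and 4 members were called, all lower. Mcm2 lost its call when control replicate 1, control replicate 4, VWF replicate 3 or VWF replicate 4 was left out, and Mcm3 and Uhrf1 were also called when VWF replicate 1 was left out.

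With VWF at 16 h, no member passed both thresholds among 36 tested, by edgeR or by DESeq2, against 4.55% of all genes called higher and 4.15% called lower. At an unadjusted p under 0.05 there were 16 members, against 2849 of all 7798 genes tested. By adjusted p alone 12 members were higher, against 13.1% of all genes, and Rrm2 was lower, against 14.7%. The same 12 members were those in which every VWF culture lay above every control culture, against 12.7% of all genes. They were Cdc6, Cdt1, Mcm2, Mcm3, Mcm4, Mcm5, Mcm7, Gins1, Gins2, Pold1, Pold2 and Lig1, with log2 fold changes from 0.32 to 0.74. The median log2 fold change of the 36 members was 0.26, against -0.03 over all genes, with 30 positive and 6 negative. Of the 36 members 32 reached 10 TPM in both groups. Cdc6 entered the test through the VWF cultures alone, which favours a higher value. Without the 16 h control replicate 5, 16 members were higher and 1 lower by adjusted p alone, and no share over all genes was computed for these counts. The licensing genes gave 7 of their 9 tested members to this list, the clamp and its loader none of 5, and nucleotide synthesis none of 4.

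**Figure D2:**
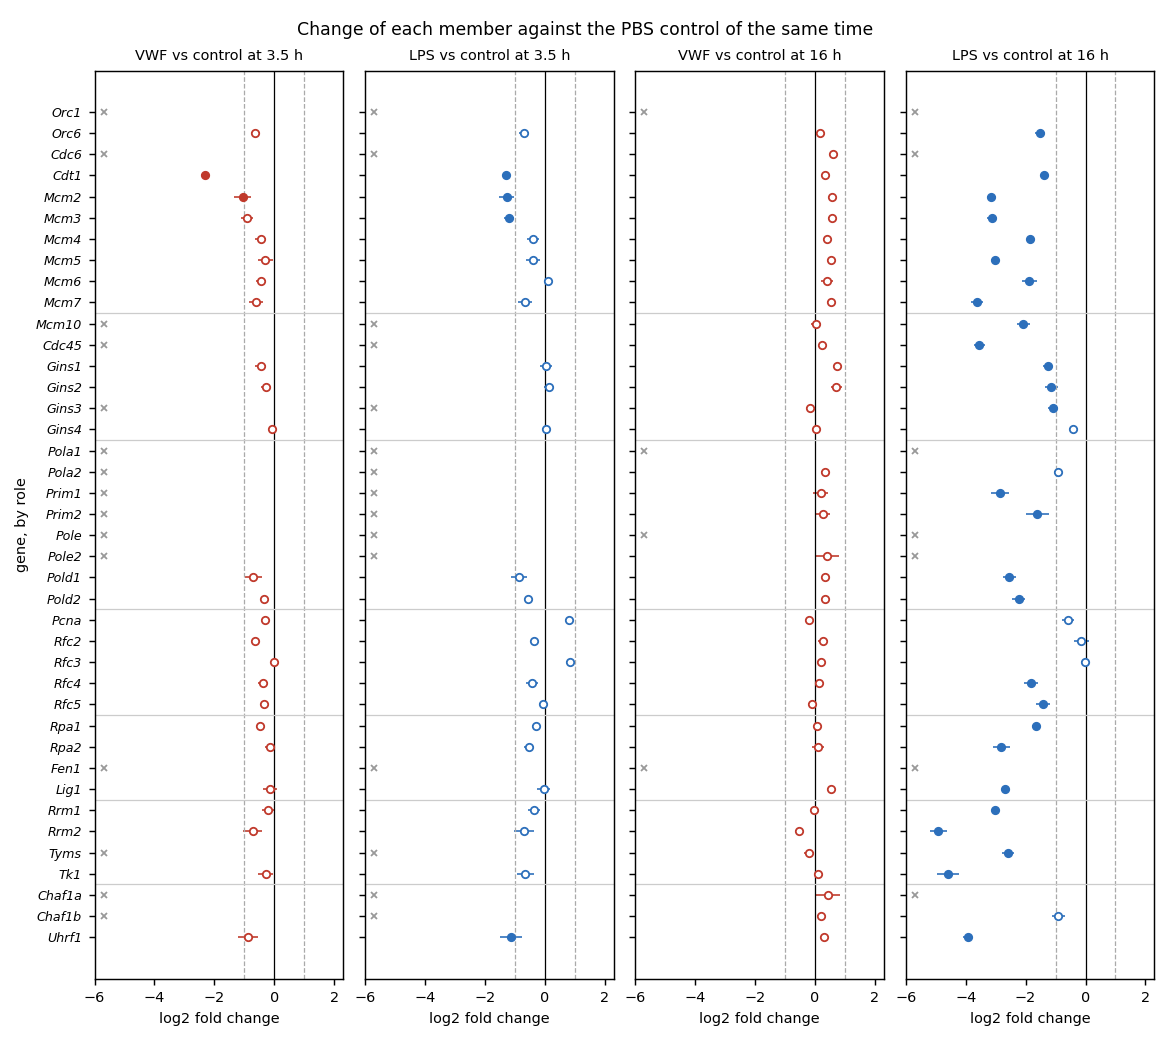
Log2 fold change against control (x axis) for each member tested (y axis, ordered by role), in 4 panels for VWF and LPS at 3.5 h and 16 h; bars are standard errors from the fit, filled points are called, crosses are members not tested and the dashed lines mark a 2-fold change. In the panel for LPS at 16 h the points run from -4.92 for Rrm2 to -0.02 for Rfc3, and in the panel for VWF at 16 h all lie between -0.55 and 0.74.

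Among the origin licensing genes, Cdt1, which with Cdc6 loads the Mcm ring, was the member most changed at 3.5 h. At 3.5 h its levels in CPM (counts scaled by library total with TMM factors, as for all values by culture here) were 87.4, 90.7, 84.5, 90.0 and 83.0 in control, 21.0, 22.0, 14.0, 14.8 and 14.7 with VWF, and 34.7, 40.9, 29.3 and 34.9 with LPS. The 3 groups did not overlap, and VWF cultures were the lowest. The log2 fold change of Cdt1 was -2.32 ± 0.14 (SE) with VWF (adjusted p = 1.3e-07) and -1.30 ± 0.10 with LPS (adjusted p = 6.1e-07), so the mean control level was 5.04 times that with VWF. At 16 h Cdt1 had 58.6, 52.4, 52.2, 49.6 and 55.3 CPM in control, 72.5, 72.9, 63.6, 68.8 and 62.5 with VWF, and 19.1, 21.1, 20.2 and 19.7 with LPS. The order of control and VWF had turned, and LPS stayed below both. With VWF the log2 fold change of Cdt1 at 16 h was 0.34 ± 0.07 (adjusted p = 0.0062, under the fold limit), and with LPS it was -1.38 ± 0.09 (adjusted p = 8.0e-07).

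Cdc6, which recruits Cdt1 to the origin recognition complex, was also lowest with VWF at 3.5 h, at lower levels. It had 5.58, 4.14, 3.88, 4.79 and 5.09 CPM in control, 1.65, 0.977, 0.859, 0.716 and 0.813 with VWF, and 5.31, 3.76, 2.65 and 2.90 with LPS at 3.5 h. All VWF cultures lay below all others, and the control mean was 4.68 times the VWF mean. Cdc6 did not reach 10 TPM in this comparison, and without the filter its log2 fold change was -2.16 ± 0.22 (adjusted p = 3.3e-07, edgeR). At 16 h Cdc6 had 13.7, 15.8, 14.1, 11.7 and 14.3 CPM in control, 23.2, 20.04, 22.2, 18.9 and 22.4 with VWF, and 1.32, 1.21, 1.58 and 1.97 with LPS. The VWF cultures were now above every control and the LPS cultures below every one. The VWF difference of Cdc6 at 16 h, 0.61 ± 0.10, passed the adjusted p (0.0012) and not the fold limit. Cdc6 entered that test through the VWF cultures alone.

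Mcm7, a subunit of the Mcm ring (chr5:138164583-138172422, GRCm38), had the largest change of the licensing genes with LPS at 16 h. Its levels were 70.1, 75.2, 87.1, 69.6 and 51.6 CPM in control, 99.6, 105, 108, 89.4 and 109 with VWF, and 6.31, 5.24, 6.31 and 4.44 with LPS. The 3 groups were fully apart. Mcm7 fell by 3.63 ± 0.19 on the log2 scale with LPS (adjusted p = 3.0e-07), and its VWF difference was 0.52 ± 0.13 (adjusted p = 0.014, under the fold limit). At 3.5 h Mcm7 had 37.8, 23.5, 19.1, 31.0 and 27.5 CPM in control, 27.1, 20.7, 11.9, 13.5 and 16.6 with VWF, and 25.0, 17.1, 11.8 and 15.3 with LPS. These groups overlapped, and the VWF difference of Mcm7, -0.61 ± 0.24, did not pass (adjusted p = 0.066).

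Mcm5, the ring subunit whose promoter stretch is printed, showed the same order at 16 h. It had 97.3, 98.1, 102, 87.1 and 91.2 CPM in control, 137, 144, 141, 122 and 151 with VWF, and 9.92, 10.6, 15.0 and 10.1 with LPS. No culture of one group reached another group. The log2 fold changes of Mcm5 were 0.54 ± 0.08 with VWF (adjusted p = 0.00055, under the fold limit) and -3.02 ± 0.15 with LPS (adjusted p = 2.1e-07). The other ring subunits fell with LPS at 16 h, with log2 fold changes of -3.14 (Mcm2), -3.13 (Mcm3), -1.86 (Mcm4) and -1.89 (Mcm6). Orc6, a subunit of the origin recognition complex, fell by 1.52.

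At 3.5 h 2 of the Mcm subunits were called in some comparison. Mcm2 fell with both, at -1.05 ± 0.29 with VWF (adjusted p = 0.011) and -1.27 ± 0.26 with LPS (adjusted p = 0.0014) on the log2 scale. Mcm3 fell by 1.18 ± 0.16 with LPS (adjusted p = 8.1e-05), and with VWF it passed the adjusted p (0.0021) at -0.91 ± 0.19. Mcm5 passed in neither comparison, with -0.29 ± 0.26 for VWF and -0.40 ± 0.24 for LPS, and Mcm6 had 0.11 ± 0.12 with LPS. The differences between these subunits were not tested.

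Of the helicase activation genes, Cdc45, which joins the Mcm ring and GINS, had the largest change. At 16 h it had 21.5, 19.8, 22.7, 18.3 and 26.6 CPM in control, 24.7, 25.7, 25.7, 25.1 and 26.1 with VWF, and 1.89, 1.50, 1.80 and 2.09 with LPS. The control and VWF cultures overlapped, and every LPS culture lay far below them, so that the control mean was 12.0 times the LPS mean. Cdc45 fell by 3.54 ± 0.18 on the log2 scale with LPS (adjusted p = 2.0e-07), and with VWF it did not pass (0.22 ± 0.10, adjusted p = 0.12). At 3.5 h Cdc45 stayed under 10 TPM and was not tested, with means of 6.66 CPM in control, 4.76 with VWF and 3.78 with LPS.

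Gins1, a subunit of the GINS complex, had the largest difference of any member between VWF and control at 16 h. Its levels were 19.9, 17.5, 20.5, 17.04 and 23.3 CPM in control, 33.3, 34.2, 28.2, 38.4 and 31.0 with VWF, and 7.18, 8.06, 6.93 and 9.73 with LPS. The groups did not overlap. Its log2 fold change with VWF was 0.74 ± 0.11 (adjusted p = 0.00041, under the fold limit), and 0.81 without the 16 h control replicate 5. Gins4, another GINS subunit and among the more abundant members, differed least of this role with LPS at 16 h (-0.40 ± 0.14, adjusted p = 0.034, under the fold limit). Mcm10, which aids helicase start, rose without the filter with LPS at 3.5 h, at 12.0, 6.41, 5.53, 8.70 and 5.72 CPM in control and 21.7, 14.3, 13.2 and 16.8 with LPS. The Mcm10 cultures did not overlap, and its log2 fold change in that fit was 1.16 ± 0.21 (adjusted p = 0.00040, edgeR without the filter). By 16 h Mcm10 was called lower with LPS, at -2.07 ± 0.21.

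Of the primase and polymerase genes tested with LPS at 16 h, Prim1, the catalytic primase subunit, had the largest change. Without the filter Pole (-3.92), Pola1 (-3.66) and Pole2 (-3.41), catalytic or accessory subunits of polymerases epsilon and alpha, had larger log2 fold changes than Prim1 (-2.76). It had 15.7, 17.1, 20.9, 14.2 and 7.37 CPM in control, 17.7, 18.0, 18.8, 12.5 and 19.8 with VWF, and 2.32, 1.82, 2.23 and 1.79 with LPS at 16 h. The 7.37 was the control replicate 5, which was the lowest control but still above all LPS cultures. Prim1 fell by 2.85 ± 0.30 on the log2 scale with LPS (adjusted p = 3.1e-05), and its value without that control was -3.02. With VWF Prim1 did not pass (0.19 ± 0.25, adjusted p = 0.65).

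Pold1, the catalytic subunit of polymerase delta, was graded across the groups at 16 h. Its levels were 45.5, 44.9, 45.8, 41.6 and 35.3 CPM in control, 50.9, 59.3, 55.4, 47.9 and 58.4 with VWF, and 7.58, 7.56, 9.21 and 4.06 with LPS. All VWF cultures were above all controls and all LPS cultures below them. Pold1 fell by 2.55 ± 0.22 on the log2 scale with LPS (adjusted p = 9.4e-06), and with VWF its 0.34 ± 0.10 passed the adjusted p (0.027) only. Pola2, the accessory subunit of polymerase alpha, passed the adjusted p with LPS at -0.92 ± 0.14, under the fold limit.

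In the clamp and its loader 3 of the 5 genes were not called with LPS at 16 h, although all 5 log2 fold changes were negative. Pcna, the clamp (chr2:132249162-132253314), had 592, 562, 580.4, 442 and 504 CPM in control, 421, 444, 469.6, 448 and 360.4 with VWF, and 1010.5, 900.3, 879.8 and 922 with LPS at 3.5 h. All LPS cultures were above all others, while control and VWF overlapped. The log2 fold change of Pcna with LPS was 0.81 ± 0.11 (adjusted p = 5.9e-05, under the fold limit), and 0.28 when libraries were scaled by their total counts alone. At 16 h Pcna had 563, 562, 568, 549.7 and 799 CPM in control, 481, 533, 483, 588 and 576 with VWF, and 323, 406, 332 and 518 with LPS. The LPS cultures were now the lower ones, with the highest of them below every control. The 16 h log2 fold change of Pcna with LPS was -0.58 ± 0.19 (adjusted p = 0.024, under the fold limit), and -0.47 without the control replicate 5, whose 799 CPM was the highest.

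Rfc3, a loader subunit, had 16.1, 12.7, 12.8, 10.8 and 12.9 CPM in control, 12.4, 13.3, 11.5, 15.0 and 12.4 with VWF, and 21.2, 21.5, 22.4 and 27.3 with LPS at 3.5 h. As for Pcna, the LPS cultures were above all others. The log2 fold change of Rfc3 with LPS was 0.84 ± 0.13 (adjusted p = 0.00019, under the fold limit), and 0.30 with scaling by total counts alone. At 16 h Rfc3 had 24.3, 24.6, 27.3, 23.3 and 18.1 CPM in control, 28.4, 27.96, 25.2, 27.6 and 27.3 with VWF, and 25.2, 24.4, 20.05 and 20.6 with LPS. The 16 h control and LPS cultures overlapped, and the log2 fold change of Rfc3 was -0.02 ± 0.13 (adjusted p = 0.90).

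Rfc2, another loader subunit, had 64.0, 60.6, 67.6, 64.5 and 119 CPM in control, 86.8, 92.5, 76.3, 106 and 90.9 with VWF, and 55.8, 62.6, 53.6 and 92.2 with LPS at 16 h. The control replicate 5 and the LPS replicate 4 were the highest of their groups, and the groups overlapped. With LPS the log2 fold change of Rfc2 was -0.15 ± 0.25 (adjusted p = 0.65), and with VWF it was 0.27 ± 0.18 (adjusted p = 0.33). Without that control Rfc2 passed the adjusted p with VWF (0.0010) at a log2 fold change of 0.48. Rfc2 was below control at 3.5 h with VWF in every culture, at 57.2, 51.8, 47.9, 43.9 and 46.2 CPM against 30.6, 36.5, 33.8, 30.7 and 26.5, with a log2 fold change of -0.63 ± 0.10 (adjusted p = 0.00039, under the fold limit).

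Rfc4 had the largest change of the loader with LPS at 16 h. It had 15.1, 14.6, 16.9, 14.5 and 21.2 CPM in control, 18.5, 19.5, 14.5, 19.9 and 18.8 with VWF, and 4.26, 4.43, 3.17 and 6.30 with LPS. Only the LPS cultures stood apart, and Rfc4 fell by 1.82 ± 0.22 on the log2 scale (adjusted p = 9.3e-05). Rfc5 fell by 1.42 ± 0.22 in the same comparison.

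**Figure D3:**
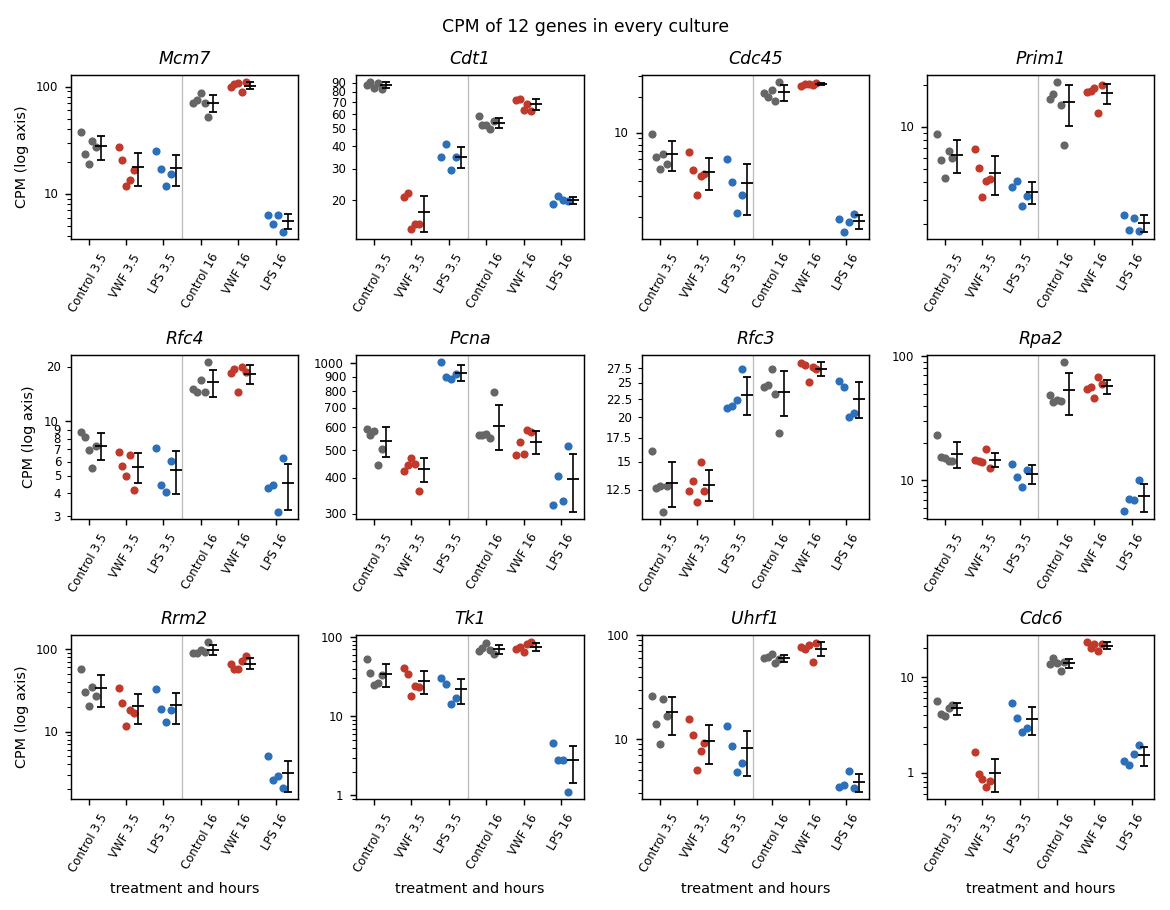
Level in CPM (log axis) of 12 members in every culture, with a panel for each gene, a point for each culture, and a bar for the mean and SD of each group (x axis, treatment and hours). With LPS at 16 h Mcm7, Cdc45 and Rrm2 lie below all other groups, while Rfc3 overlaps the controls of that time.

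Of the genes for single-strand binding and strand joining, Rpa2, a subunit of the protein that coats single-stranded DNA, had the largest change with LPS at 16 h with all cultures in the fit. At 16 h it had 48.4, 42.5, 44.8, 43.5 and 89.6 CPM in control, 54.7, 56.8, 46.5, 67.9 and 59.7 with VWF, and 5.73, 7.12, 6.91 and 10.1 with LPS. The 89.6 was the control replicate 5, well above the other 4 controls, and all LPS cultures lay below every other culture. Rpa2 fell by 2.81 ± 0.29 on the log2 scale with LPS (adjusted p = 3.2e-05), and its value without that control was -2.55, smaller in size than the -2.67 of Lig1 in the same fit. With VWF Rpa2 did not pass (0.08 ± 0.20, adjusted p = 0.82), but it passed the adjusted p (0.017) at 0.34 without that control.

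Lig1, the ligase that joins lagging strand fragments, had 66.8, 72.9, 84.7, 60.3 and 71.6 CPM in control, 103, 103, 100.2, 104 and 112 with VWF, and 11.1, 10.7, 12.0 and 9.70 with LPS at 16 h. The groups were fully apart. Its log2 fold changes were 0.54 ± 0.09 with VWF (adjusted p = 0.0011, under the fold limit) and -2.67 ± 0.13 with LPS (adjusted p = 1.6e-07). Rpa1, the large subunit of the same coat, fell by 1.66 ± 0.13 with LPS at 16 h and had 0.07 ± 0.08 with VWF.

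The members with the largest changes with LPS at 16 h, Rrm2 and Tk1, are nucleotide synthesis genes. Rrm2, the regulated subunit of ribonucleotide reductase (chr12:24708241-24714146), had 88.6, 90.7, 96.4, 91.2 and 121 CPM in control, 66.5, 57.7, 57.2, 71.2 and 81.8 with VWF, and 5.02, 2.61, 2.88 and 2.07 with LPS. The groups did not overlap, and unlike the licensing genes VWF lay below control. Rrm2 fell by 4.92 ± 0.28 on the log2 scale with LPS (adjusted p = 6.2e-07), and the control mean was 31.1 times the LPS mean. With VWF its log2 fold change of -0.55 ± 0.12 passed the adjusted p (0.0056) and not the fold limit, and was -0.47 without the control replicate 5.

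Tk1, the thymidine kinase of the salvage path, had 66.6, 73.0, 83.4, 68.6 and 60.8 CPM in control, 71.6, 74.0, 64.1, 82.8 and 86.0 with VWF, and 4.59, 2.84, 2.83 and 1.11 with LPS at 16 h. Control and VWF overlapped and LPS was far below both. Tk1 fell by 4.59 ± 0.37 on the log2 scale with LPS (adjusted p = 5.1e-06), and the control mean was 24.8 times the LPS mean. Rrm1, the large reductase subunit, fell by 3.01 ± 0.11, and Tyms, which makes thymidylate, fell by 2.58 ± 0.21. None of these 3 passed with VWF at 16 h.

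Of the chromatin genes, Uhrf1, which brings the maintenance methyltransferase to newly copied DNA, had the largest change. It had 60.6, 62.5, 65.8, 53.9 and 58.9 CPM in control, 77.1, 73.7, 81.7, 55.9 and 84.7 with VWF, and 3.43, 3.61, 4.96 and 3.38 with LPS at 16 h. LPS cultures lay below all others of that time, and 1 VWF culture overlapped the controls. Uhrf1 fell by 3.93 ± 0.15 on the log2 scale with LPS (adjusted p = 5.5e-08) and did not pass with VWF (0.30 ± 0.12, adjusted p = 0.083). At 3.5 h Uhrf1 had 26.3, 14.1, 9.01, 24.4 and 16.7 CPM in control and 13.4, 8.54, 4.83 and 5.91 with LPS. These overlapped, and the call of Uhrf1 at -1.13 ± 0.36 (adjusted p = 0.017) was lost when control replicate 1 or 4 or LPS replicate 3 or 4 was left out. Chaf1b, a subunit of the histone chaperone CAF-1, passed the adjusted p at -0.91 ± 0.22 with LPS at 16 h, under the fold limit.

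The times differed in the controls too. Of 33 members tested, 20 were called and all were higher at 16 h than at 3.5 h, against 4.00% of all genes called higher. By adjusted p alone 31 were higher, against 20.7% of all genes, and Cdt1 was lower at -0.70 ± 0.07, against 20.5%. Uhrf1 (1.74 ± 0.26), Mcm10 (1.72 ± 0.26) and Rpa2 (1.71 ± 0.24) had the largest log2 differences. Without the 16 h control replicate 5, 20 of 32 were called, and Rpa2 had 1.45. With VWF 33 of 35 members were called higher at 16 h, against 9.15% of all genes, led by Cdc6 (4.41 ± 0.22) and Uhrf1 (2.95 ± 0.27), while Pcna (0.32) and Gins4 (0.88) passed the adjusted p only. With LPS 10 of 18 members tested were called, and all 10 were lower at 16 h, against 13.5% of all genes, with Tk1 at -2.92 ± 0.43, Rrm2 at -2.70 ± 0.37 and Mcm7 at -1.61 ± 0.25. Rfc2 passed the adjusted p in the other direction, at 0.82 ± 0.19. Members that reached 10 TPM at both times were 25 of the 33 in control and 24 of the 35 with VWF. The others there entered through the 16 h cultures alone, which favours higher calls at 16 h. With LPS 7 of the 18 reached it at both times, 17 at 3.5 h and 8 at 16 h. Most of the others with LPS thus entered through 3.5 h alone, which favours lower calls.

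Tests of the difference itself showed that treatment effects changed with time. The VWF effect was more positive at 16 h than at 3.5 h in 10 of 36 members, all in that direction, against 5.69% of all genes (scaling by total counts alone turned the calls over all genes from 493 higher and 673 lower to 610 and 569). These were Cdc6 (2.84 ± 0.25), Cdt1 (2.68 ± 0.16), Pole2 (1.87 ± 0.58), Mcm2 (1.65 ± 0.32), Mcm3 (1.50 ± 0.23), Gins1 (1.22 ± 0.21), Uhrf1 (1.21 ± 0.37), Mcm7 (1.16 ± 0.29), Pold1 (1.08 ± 0.31) and Gins2 (1.02 ± 0.26). The LPS effect was more negative at 16 h in 25 of 33 members, all in that direction, against 12.8% of all genes, with the largest for Rrm2 (-4.23 ± 0.45), Tk1 (-3.94 ± 0.44), Mcm10 (-3.19 ± 0.34) and Mcm7 (-2.96 ± 0.32). Only 7 of these 33 members, and 24 of the 36 tested for VWF, reached 10 TPM in every group of the test. The others entered through some of the groups alone. All 33 reached it in the 16 h controls, and 35 of the 36 in the 16 h VWF cultures. This favours calls in these directions. Without the 16 h control replicate 5, 10 of 36 members were called for VWF and 24 of 32 for LPS, in the same directions. For Cdt1 the LPS effect did not differ by time beyond its error (-0.07 ± 0.12, adjusted p = 0.64).

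Set directly against each other at 16 h, VWF was higher than LPS in 31 of 35 members tested, with all calls in that direction, against 11.1% of all genes. The median log2 difference was 2.44. Only 8 of the 35 members reached 10 TPM in both groups. The others entered the test through the VWF cultures alone, so a count over tested members favours higher calls. The largest were Tk1 (4.73 ± 0.35), Rrm2 (4.41 ± 0.28), Uhrf1 (4.28 ± 0.18) and Mcm7 (4.20 ± 0.14). Gins4 (0.48), Rfc2 (0.46), Pcna (0.43) and Rfc3 (0.28) passed the adjusted p but not the fold limit. At 3.5 h only Pcna was called of 24 tested, lower with VWF at a log2 difference of -1.09 ± 0.10 (adjusted p = 6.4e-06), against 6.71% of all genes called lower. By adjusted p alone 5 members were lower, against 24.0% of all genes, and Rpa2 was higher at 0.40, against 26.3%. When libraries were scaled by their total counts alone, edgeR called no member at 3.5 h (DESeq2 called 2 with its own scaling), and Pcna had -0.80. That scaling turned the calls over all genes from 353 higher and 503 lower to 772 and 334 at 3.5 h, and from 837 and 1095 to 1772 and 687 at 16 h, where 31 members were again called higher.

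**Figure D4:**
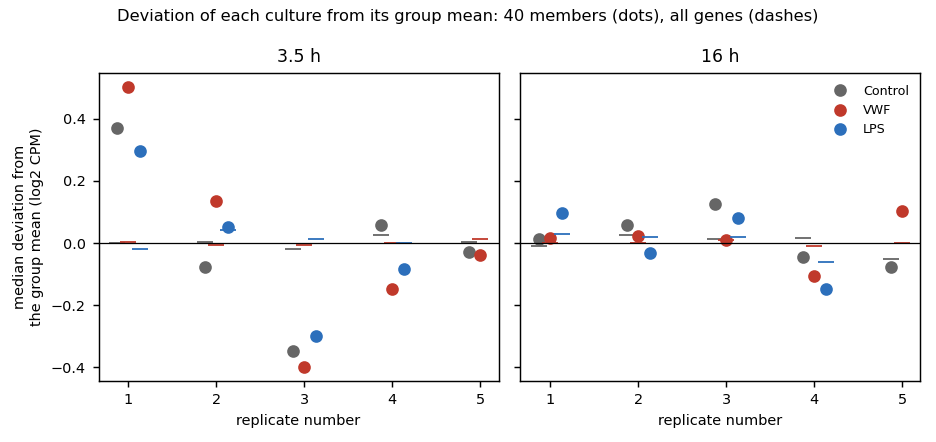
Median over the 40 members of the log2 deviation of a culture from its group mean (y axis), for each of the 28 cultures (dots; x axis, replicate number; colour, treatment; 1 panel for each time), with dashes for the same median over all 8867 genes at 10 TPM or more in any culture. Replicate 1 is the highest and replicate 3 the lowest culture in all 3 groups at 3.5 h, and at 16 h the medians lie between -0.15 and 0.13.

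Cultures of a group differed in these genes together at 3.5 h. The culture labelled replicate 1 was the highest of its group in 32 of 40 members in control, 32 with VWF and 29 with LPS. The culture labelled replicate 3 was the lowest in 26, 28 and 33 members. The median deviation of the members from the group mean on the log2 scale was 0.37, 0.50 and 0.30 in replicate 1 and -0.35, -0.40 and -0.30 in replicate 3, while over all genes the medians at 3.5 h lay between -0.02 and 0.04. Replicate 1 also had the lowest macrophage marker sum of each 3.5 h group, at 18189, 17805 and 8704.2 TPM, and the part of that in the result was not tested. The median SD of log2 CPM was 0.29, 0.36 and 0.31 for members in control, VWF and LPS at 3.5 h, against 0.19, 0.20 and 0.18 over all genes. At 16 h it was 0.22, 0.13 and 0.29 for members against 0.27, 0.18 and 0.27.

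Other genes of the replication path were also called in part (log2 fold changes, edgeR). Of 38 other replication factors, 22 were tested with LPS at 16 h and 9 were called lower and 1 higher, against 12.4% and 15.3% of all genes, with Clspn (-5.29), a fork checkpoint mediator, Asf1b (-3.24), a histone chaperone, and Tipin (-2.44) the largest, while the related Asf1a rose (1.97). At 3.5 h Gmnn, the inhibitor of Cdt1, fell with VWF (-1.68) and with LPS (-1.92), and Dnmt1, the methyltransferase that Uhrf1 brings to DNA, fell likewise (-1.42 and -2.31). The kinase subunit gene Dbf4 fell by 1.14 with LPS, in which Asf1a rose (2.20), and 3 lower and 1 higher of 21 were called, against 11.8% and 12.8% of all genes. With VWF at 3.5 h 2 of 21 of these factors were called, both lower, against 5.59% of all genes. With VWF at 16 h 1 of 23 of these factors passed the adjusted p in each direction, both under the fold limit. Of all genes 13.1% passed as higher and 14.7% as lower there.

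Of 34 other nucleotide supply genes, 26 were tested in each treatment comparison. With LPS at 16 h 14 were called lower and 3 higher, against 12.4% and 15.3% of all genes, with Dut (-3.46), which clears dUTP, Mthfd1 (-2.35) and Prps2 (-2.14) the largest falls. The 3 that rose were Cmpk2 (9.28), a nucleotide kinase known to be induced by interferon, Samhd1 (3.22), which breaks down dNTPs, and Dck (2.39), the deoxycytidine kinase. The same 3 were called higher with LPS at 3.5 h, at 9.64, 3.24 and 2.51, where Umps (-2.01) and Tk2 (-1.20) were lower. These 3 higher and 2 lower calls of 26 stand against 12.8% and 11.8% of all genes. With VWF Cmpk2 rose at 3.5 h (6.61) and at 16 h (2.75), Dck rose at 16 h (1.17), and Umps fell at 3.5 h (-1.13). Of the 26 tested, 1 was called higher and 1 lower with VWF at 3.5 h, against 9.10% and 5.59% of all genes. At 16 h 2 were called higher and 0 lower with VWF, against 4.55% and 4.15%. Rrm1, Rrm2, Tyms and Tk1 fell in the cultures with LPS at 16 h in which Cmpk2, Samhd1 and Dck rose.

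Of 23 E2F, RB and S-phase cyclin genes, 17 were tested with LPS at 16 h and 7 were called lower, against 12.4% of all genes, led by the cyclins Ccna2 (-6.75) and Ccne2 (-3.58) and the activator E2f2 (-3.44). At 3.5 h E2f2 fell with VWF (-1.98) and with LPS (-3.92), as did Ccne2 (-1.72 and -1.48). With VWF at 3.5 h 2 of 16 tested were called, both lower, against 5.59% of all genes. With LPS at 3.5 h E2f6 was also lower (-1.60), and the pocket protein gene Rbl1 (1.76), Ccne1 (1.59) and E2f5 (1.27) were higher, with 5 lower and 3 higher calls of 17 tested, against 11.8% and 12.8% of all genes. With VWF at 16 h Ccna2 was the single call of 16 tested, at -1.37, against 4.15% of all genes called lower. In that comparison 12 of 36 members were higher by adjusted p alone, against 13.1% of all genes. Of 16 DNA damage checkpoint genes, 8 were tested with LPS at 16 h, and 4 were called lower and 1 higher, against 12.4% and 15.3% of all genes. The kinase genes Chek2 (-1.85) and Wee1 (-1.61) were among the lower ones, of which the largest is not reported here, and Mdm2 rose (2.28). At 3.5 h Wee1 and Chek2 were lower with VWF (-2.25 and -1.22) and with LPS (-1.45 and -1.45), and Mdm2 (1.26) and Trp53 (1.04) were higher with LPS. Of 6 tested at 3.5 h, 2 were called lower with VWF, against 5.59% of all genes. With LPS 2 of 6 were called lower and 2 higher, against 11.8% and 12.8%.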

How the data were processed

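RNA-seq was measured in 28 cultures. The deposited file holds whole-number counts per gene, which the authors made from paired-end reads of 150 bases aligned with STAR to GRCm38 (mm10); which annotation was used, whether counting used strand and how reads with several matches were treated is not given in the sources used here. TPM values were computed here from the counts with GENCODE M21 exon lengths. Fits used only the groups being compared, in edgeR 4.0.16 (R 4.3.3; glmQLFit with robust estimates, TMM factors, quasi-likelihood test, Benjamini-Hochberg adjustment over all genes at 10 TPM or more in at least 1 culture compared), 11 comparisons in all. DESeq2 1.42.0, other scalings, other filters, leaving out each culture and a replicate block were alternatives, and the fits were tested on simulated data. Levels by culture are CPM with TMM factors over 8867 genes, and SD of log2 CPM used a prior count of 2. No 2 cultures of a group agreed within sampling noise.

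The members and lists were chosen with earlier results of these data known. Values by culture were given, by rule, for the member of each role with the largest change against control and for members that went against their role (Mcm7, Cdc45, Prim1, Rfc4, Rpa2, Rrm2, Uhrf1, Pcna, Rfc2, Rfc3, Cdt1). Mcm5, Cdc6, Gins1, Mcm10, Pold1, Lig1 and Tk1 were added after their values were seen. From the other lists, the rule named at most the 3 largest called genes in each direction whose cultures did not overlap. A called gene of the checkpoint list is not reported here. Replicate numbers come from the labels. Deviations of VWF and LPS cultures at 16 h with the same number correlated positively (from 0.16 to 0.78 over 4 pairs). In most other pairs of groups some same-numbered correlations were negative, down to -0.67. For VWF against LPS at 16 h a replicate block gave 31 calls as well.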

Additional observations from a re-analysis of the deposited data

Results flagged for a closer look

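Single cultures far from the rest of their group, by Dixon's test, were looked for in 17 members over 6 groups (102 groups of values); chance alone singles out about 1 in 20. The 16 h control replicate 5 was the far highest in 4 members, with 799 CPM of Pcna, 119 of Rfc2, 89.6 of Rpa2 and 121 of Rrm2. At 3.5 h replicate 1 was the far highest for Rpa2 in control (23.2 CPM), for Cdc6 with VWF (1.65 CPM) and for Lig1 with LPS (40.7 CPM). With LPS at 16 h replicate 3 was the far highest for Mcm5 (15.0 CPM) and Uhrf1 (4.96 CPM), and with VWF at 16 h replicate 3 was the far lowest for Rfc4 (14.5 CPM). The treatment effect differed between the times, by the interaction test in edgeR, in 10 members for VWF and in 25 members for LPS.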

How the results depend on the processing

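Across all alternatives no called or tested member changed its direction past a threshold. The counts of members called depended on the settings mostly at 3.5 h, as follows, and the cause was not tested unless named. For VWF against control at 3.5 h (2 called) there were 4 with library size scaling, 4 without a filter and 4 with a filter over 28 cultures, 10 without the fold limit, and 1 to 4 when 1 culture was left out. Over all genes 2366 of 26147 were called without a filter, 1357 of 8864 over 28 cultures and 3576 of 8200 without the fold limit. For VWF at 16 h (0 called) there were 13 without the fold limit and 0 whichever culture was left out. Without the fold limit 2163 of all 7798 genes tested were called. For LPS at 3.5 h (4 called) there were 11 with library size scaling, 10 with filterByExpr, 9 without a filter and 8 with the filter over 28 cultures, where more members entered the test, 12 without the fold limit, and 3 to 6 with 1 culture left out. Over all genes 3917 of 14265 were called with filterByExpr and 4542 of 25626 without a filter. With the filter over 28 cultures 2227 of 8864 were called, and without the fold limit 5384 of 8190. For VWF against LPS at 3.5 h (1 called) there were 2 with DESeq2, 2 with RLE size factors, 0 with library size scaling, 4 with filterByExpr, without a filter or over 28 cultures, 2 in 1 fit of all groups, 6 without the fold limit, and 1 to 2 with 1 culture left out. Over all genes 1776 of 13959 were called with filterByExpr and 1942 of 25250 without a filter. With the filter over 28 cultures 1029 of 8864 were called, and without the fold limit 3768 of 7500. For the control times (20 called) there were 32 without the fold limit and 15 to 20 with 1 culture left out. Without the fold limit 3429 of all 8333 genes tested were called. For the LPS times (10 called) there were 18 with filterByExpr or without a filter, and 6 to 10 with 1 culture left out, the 6 without LPS replicate 1 at 3.5 h. Over all genes 4116 of 13754 were called with filterByExpr and 4298 of 24940 without a filter. For the VWF effect by time (10 called) there were 21 without the fold limit and 8 to 12 with 1 culture left out. Without the fold limit 2819 of all 8660 genes tested were called. With 1 culture left out the others gave 27 to 28 (LPS at 16 h), 29 to 31 (VWF against LPS at 16 h), 31 to 33 (VWF times) and 24 to 26 (LPS effect by time).

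With the replicate block the calls were 2 for VWF and 4 for LPS at 3.5 h, and 0 for VWF and 29 for LPS at 16 h. Over all genes the block called 1211 of 8200, 1988 of 8190, 669 of 7798 and 2266 of 7994, in the same order. Chosen after seeing the data, the block without the fold limit gave 17 members for VWF at 3.5 h, 18 for LPS at 3.5 h and 6 for VWF against LPS at 3.5 h, and leaving out the 16 h control replicate 5 without the fold limit gave 17 for VWF at 16 h and 31 for the control times. For these added settings no share over all genes was computed. Over all genes the same-numbered pairs of other groups did not all deviate together (lowest correlation -0.67), and 3 of 5 controls at 3.5 h correlated best with the VWF culture of their own number, although the 40 members deviated together in replicates 1 and 3 of all 3 groups at 3.5 h. The median over members of the mean level moved with library size scaling from 12.0 to 9.84 CPM with LPS at 3.5 h, from 25.7 to 29.3 in control, from 37.4 to 40.4 with VWF and from 6.45 to 5.10 with LPS at 16 h. Fen1 had 0 counts in 1 LPS culture at each time; the cause was not tested.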
